A study of Bos taurus with 12 samples.

Results

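Day 7 was set against day 2 in the endometrium of cows treated with an intrauterine antiseptic, on the 6 arrays of these days out of 12 in the study. Endometrium of 3 cows was biopsied on days 0, 2, 7 and 14 after povidone-iodine (PVP-I), an iodine-releasing antiseptic, and each biopsy's total RNA was labelled with cyanine-3 and hybridised to a one-colour Agilent bovine oligonucleotide array. The tested arrays are the 3 labelled day 7 and the 3 labelled day 2, with 1 array for each cow and day. All arrays come from treated cows, which the labels call fertile, and no untreated cow was sampled. Forceps took tissue alternately from the left and right uterine horn, but the horn of a given biopsy, the ages and the stage of the oestrous cycle are not in the labels. Antiseptic, time, cycle and repeated biopsy therefore cannot be told apart in any difference between these days. Of 43622 probes without outlier flags, 33539 were well above background on at least 3 of the 12 arrays and were tested. They stood for 12610 named genes, each read from its brightest probe.

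The endometrium lines the uterus with a luminal epithelium, glands and a vascular stroma, and its gene expression follows the ovarian steroids oestradiol and progesterone through the cycle. After injury the epithelium is restored by dividing cells, while neutrophils and macrophages clear debris and fibroblasts lay down and remodel matrix. Epithelial cells of the uterus also secrete antimicrobial peptides and move ions and water into the lumen. A biopsy mixes these cell types, so fewer cells of a type and less RNA per cell cannot be told apart.

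The arrays were assigned to samples by the columns of the deposited value table. The links between scanner files and samples name another sample for 10 of the 12 arrays, and by those links limma called 0 probes (1398 at an unadjusted p under 0.05). By the table each slide holds 1 cow and each day has its own position on the slide, so cow and slide, and likewise day and position, cannot be told apart. The day 2 array of cow 3 stood apart, with 63.2% of probes well above background, against 71.3 to 76.0% on the other arrays. It also differed in its cell type markers. The summed signal of 18 epithelial markers, in multiples of each array's 75th percentile, was 54.2, 99.6 and 85.9 on day 7 (cows 1, 2 and 3), against 121, 114 and 37.0 on day 2. For 19 smooth muscle and pericyte markers the sum was 315, 258 and 517 on day 7, against 187, 139 and 735 on day 2. All 18 epithelial and all 18 stromal fibroblast markers tested were well above background on all 6 arrays, and the stromal sums overlapped (326 to 387 on day 7, 293 to 386 on day 2).

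Between day 7 and day 2, limma called 163 of 33539 probes at an adjusted p under 0.05 (0.486%), 67 higher and 96 lower on day 7. Among genes, 22 were higher (0.174%) and 44 lower (0.349%), and all 66 moved the same way in 3 of 3 cows. All day 7 arrays lay above all day 2 arrays in 22 of the 22 (11.4% of all genes) and below them in 41 of the 44 (9.32%), with overlap in TMEM35A, ARSK and FAH. Both the shared sign and the lack of overlap are favoured by the choice of these genes on the same arrays. Neither is separate support, here or where single called genes are described below. At an unadjusted p under 0.05, 1274 genes were higher (10.1%) and 1136 lower (9.01%). The lowest adjusted p was 0.0290, so every call lies near the threshold. These calls take the spread from all 12 arrays, and with only the 6 arrays of days 2 and 7 in the fit 0 probes and 0 genes passed (lowest adjusted p 0.104; 4802 probes at an unadjusted p under 0.05). Without the day 2 array of cow 3, 135 probes were called and 67 of them were among the 163. By cow, 0 probes passed without cow 1 (2781 at an unadjusted p under 0.05), 0 without cow 2 (2823) and 2145 without cow 3, which included 153 of the 163.

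**Figure D1:**
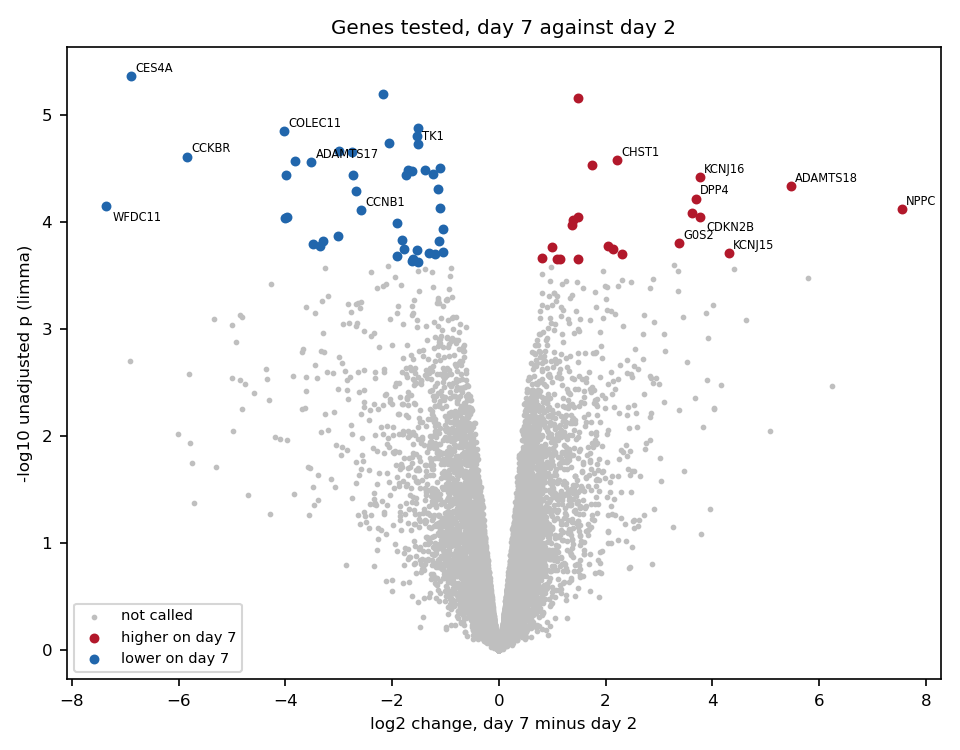
Each point is 1 of 12610 genes, with the log2 change (day 7 minus day 2) on the x axis and -log10 of the unadjusted limma p on the y axis. The 22 genes called higher (red) reach a fitted change of 7.55 (NPPC) and the 44 called lower (blue) one of -7.35 (WFDC11); both genes were at background on one day, so these are no exact changes.

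Values below are log2 signals relative to the array's 75th percentile, in the order of cows 1, 2 and 3. Changes are log2 differences of day 7 minus day 2 (n = 3 cows) with limma's standard error (SE). The SE takes its spread from all arrays in the fit and from limma's prior. It is therefore not the spread of the changes in the 3 cows. The p is also limma's, adjusted over the 33539 probes. A probe that was not well above background on any array of a day has only a bound there. Its fold is then given as "at least", from the brighter day's mean against the mean, over the dimmer day's arrays, of the higher of the probe's own signal and the lowest signal well above background. The counts of each gene list stand beside the shares of all genes. These are 0.174% called higher and 0.349% called lower, and, at an unadjusted p under 0.05, 10.1% higher and 9.01% lower. For days without overlap the shares are 11.4% with day 7 above day 2 and 9.32% with day 7 below it.

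The largest rise was that of NPPC, the precursor gene of C-type natriuretic peptide, a ligand of a guanylyl cyclase receptor that in the ovarian follicle helps to hold the oocyte in meiotic arrest. Its probe lies on chromosome 2 of the array annotation's build (HGSC Btau 3.1), chr2:123752217-123752276, minus strand. The probe is shown whole because this 1 sequence carries the value.
NPPC: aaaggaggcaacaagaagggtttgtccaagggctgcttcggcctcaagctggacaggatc
NPPC had log2 signals of 2.77, 0.99 and -0.76 on day 7, against -7.12, -6.99 and -5.53 on day 2. It was well above background on all 3 day 7 arrays and on none of day 2, and was at least 134-fold higher on day 7 (adjusted p = 0.0371). The means of days 0 and 14 were -3.18 and -2.91, between the means of day 2 and day 7.

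Both inward rectifier potassium channel genes that passed were higher on day 7. KCNJ15 had -1.36, 0.44 and -0.75 on day 7, against -3.90, -4.18 and -6.55 on day 2 (change 4.32 ± 0.68, adjusted p = 0.0479), and was well above background on 2 of 3 day 2 arrays. The gene's other probe had a change of 1.30 and did not pass (adjusted p = 0.107). KCNJ16 had -4.57, -3.47 and -3.39 on day 7, against -8.16, -7.32 and -7.26 on day 2, where no array was well above background (at least 4.78-fold higher, adjusted p = 0.0293). The ranges of the days did not overlap for either gene. Of 26 ion and solute transport genes tested, 1 was higher (KCNJ15) and 0 lower, with a median change of 0.12 against 0.03 over all genes. Other members had large changes that missed the threshold. RHCG, an ammonia transporter, had -0.95, 1.65 and 2.52 on day 7 and -5.32, -3.78 and -5.06 on day 2 (change 5.79 ± 0.99, adjusted p = 0.0546). CFTR, the chloride channel of secretory epithelia, had a change of 4.02 ± 0.75 (0.0613), and SCNN1B, which encodes part of the ENaC sodium channel, 2.92 ± 0.58 (0.068). SCNN1B was well above background on 1 of 3 day 2 arrays, and its days overlapped.

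The cell cycle inhibitor gene CDKN2B and the signalling genes SMAD3 and GDNF rose too. CDKN2B, an inhibitor of the kinases that work with D-type cyclins, had -1.34, -0.03 and 0.50 on day 7, against -3.65, -3.83 and -4.69 on day 2 (change 3.77 ± 0.54, adjusted p = 0.0371; probe at chr8:23032522-23032581, plus strand). SMAD3, which carries TGF-beta signals to the nucleus, had -0.38, 0.10 and -0.99 on day 7 and -1.29, -1.35 and -1.93 on day 2 (1.1 ± 0.18, 0.0489). For both genes all day 7 arrays lay above all day 2 arrays. GDNF, a neurotrophic ligand of the RET receptor complex, had -3.59, -4.28 and -5.30 on day 7, against -5.96, -6.52 and -7.60 on day 2 (2.30 ± 0.37, 0.0482), with 2 of 3 day 2 arrays well above background. Of 32 growth factor and receptor genes in the list, which did not hold these 3, 0 passed (7 higher and 1 lower at an unadjusted p under 0.05), with a median of 0.37. Its member with the smallest p was TGFB1, the ligand upstream of SMAD3, at 0.99 ± 0.22 (0.0879).

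The genes ADAMTS18, DPP4, G0S2 and CHST1 rose as well. ADAMTS18, a secreted metalloprotease, had -1.52, -1.86 and -2.43 on day 7, against -6.76, -8.05 and -7.40 on day 2, where it was at background (at least 17.5-fold higher, adjusted p = 0.0313). DPP4, a surface peptidase that clips many peptide hormones and chemokines, had -3.85, -1.97 and -1.38 on day 7 and -6.35, -5.34 and -6.60 on day 2 (3.69 ± 0.50, 0.0359). It was well above background on 1 of 3 day 2 arrays, and its other probes were higher by 3.55 and, at background on day 2, at least 4.11-fold. G0S2, an inhibitor of the main triglyceride lipase, was bright on both days, with 4.93, 4.45 and 3.54 on day 7 and 0.99, 1.00 and 0.80 on day 2 (3.38 ± 0.52, 0.0466). None of these genes had overlapping ranges. CHST1, a sulfotransferase of keratan sulfate, had 3.59, 3.99 and 2.86 on day 7, against 1.62, 1.51 and 0.66 on day 2 (2.22 ± 0.27, 0.0290).

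Another 11 genes rose. RNF207, a RING finger protein, rose by 2.14 and IGSF21, an immunoglobulin-domain adhesion protein, by 2.04, with 2 of 3 day 2 arrays of IGSF21 well above background. LONRF3, another RING finger gene, rose by 1.75. WLS, the carrier that Wnt ligands need for secretion, had 0.42, 0.93 and 0.90 on day 7 and -0.73, -0.74 and -0.76 on day 2 (1.49 ± 0.24, adjusted p = 0.0489). Transporter genes were SLC39A14, a zinc importer (0.29, 0.62 and 0.18 on day 7, against -1.14, -1.06 and -1.17 on day 2), SLC2A10, of the glucose transporter family (1.48), and SLC7A6, a light chain of amino acid exchange (1.14). SH2D2A, a T cell adapter, rose by 1.38, FNDC3B by 1.37, FBLN1 (fibulin), a matrix glycoprotein, by 1.00, and NFE2L2, the transcription factor of the antioxidant response, by 0.81.

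**Figure D2:**
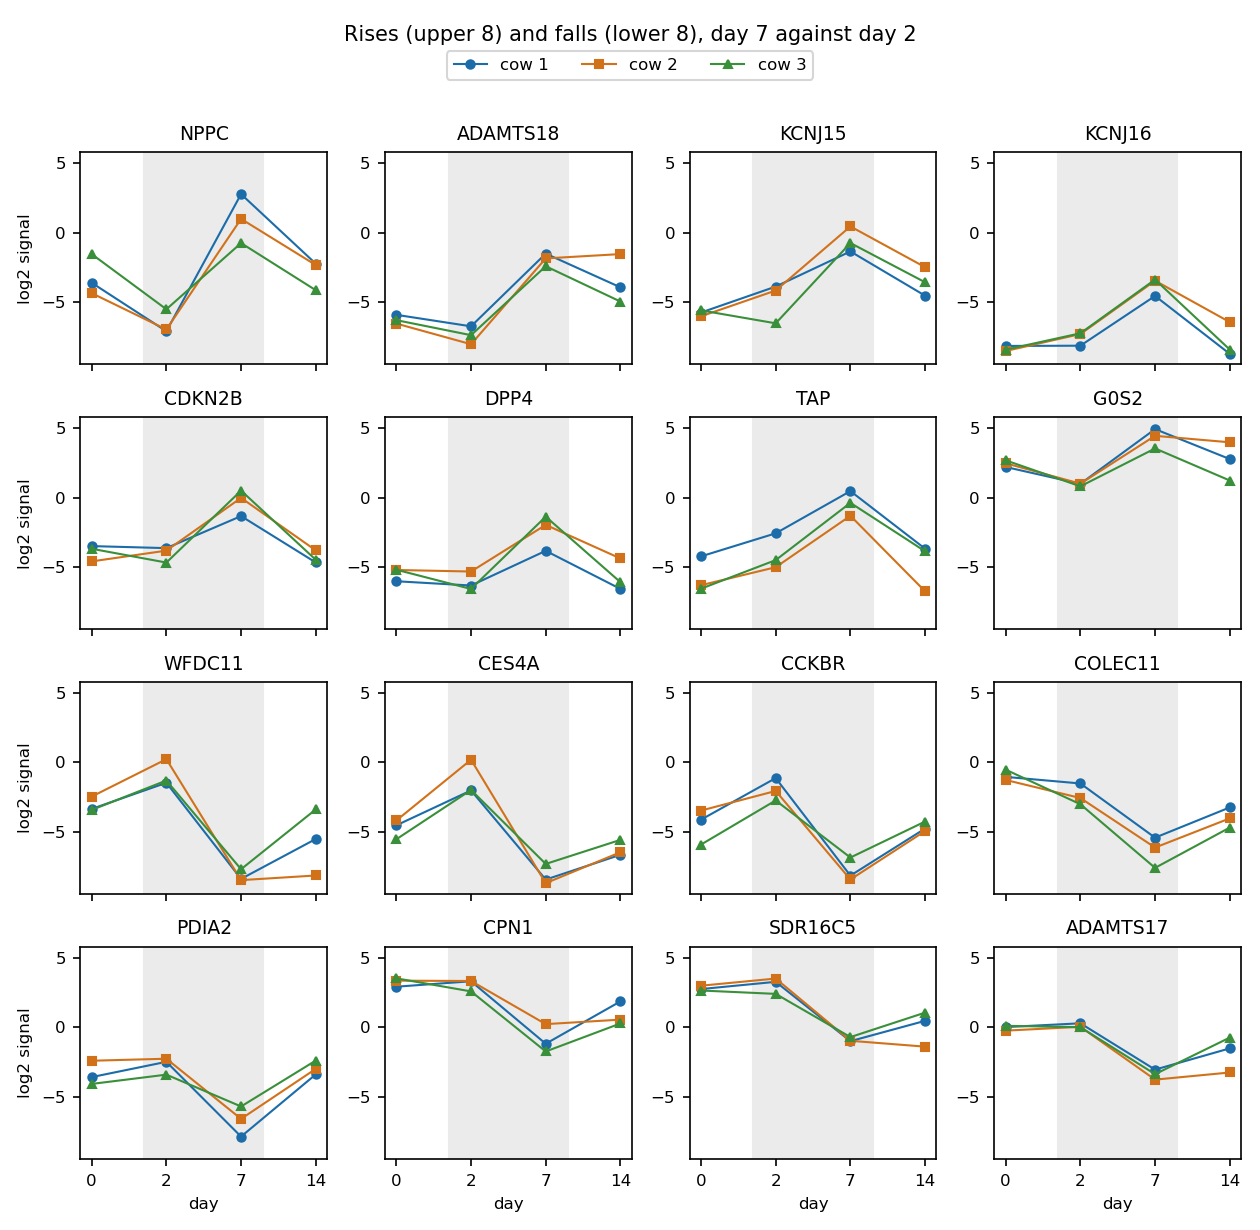
Log2 signal relative to the array's 75th percentile (y axis) by day (x axis, days equally spaced), with 1 line for each cow and days 2 and 7 shaded, for 8 of the largest rises and 8 of the largest falls. NPPC reached 2.77, 0.99 and -0.76 on day 7, against -7.12, -6.99 and -5.53 on day 2, and CES4A -8.45, -8.71 and -7.32, against -2.02, 0.20 and -1.98.

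The falls with the largest bounds were in genes that were bright on day 2 and at background on all day 7 arrays. WFDC11, of the WAP-domain family of small secreted proteins, had -8.40, -8.49 and -7.70 on day 7, against -1.47, 0.24 and -1.30 on day 2 (at least 44.9-fold lower, adjusted p = 0.0371; probe at chr13:75242338-75242397, plus strand). CES4A, a carboxylesterase, had -8.45, -8.71 and -7.32 on day 7, against -2.02, 0.20 and -1.98 on day 2 (at least 33.5-fold lower, adjusted p = 0.0290). CCKBR, the receptor of gastrin and cholecystokinin, had -8.16, -8.44 and -6.86 on day 7, against -1.13, -2.06 and -2.74 on day 2 (at least 20.5-fold lower, adjusted p = 0.0290). The other probe of CCKBR had a change of -0.29 (0.599), so this call rests on 1 probe. OTOR (otoraplin) was at least 5.20-fold lower, with all 3 day 2 arrays well above background.

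Genes of the secreted proteins COLEC11, CPN1, LYG2 and DEFB122 fell. COLEC11, a collectin that binds microbial sugars and starts the lectin pathway of complement, had -5.43, -6.14 and -7.60 on day 7, against -1.52, -2.57 and -3.02 on day 2 (-4.02 ± 0.45, adjusted p = 0.0290), with 1 of 3 day 7 arrays well above background. CPN1, the catalytic subunit of carboxypeptidase N, which trims anaphylatoxins and kinins, had -1.18, 0.23 and -1.74 on day 7 and 3.32, 3.34 and 2.59 on day 2 (-3.98 ± 0.50, 0.0290). LYG2, of the goose-type lysozyme family, had -7.84, -6.59 and -5.63 on day 7 and -3.10, -2.74 and -3.81 on day 2 (-3.47 ± 0.54, 0.0466; 1 of 3 day 7 arrays well above background). In none of these did the days overlap. DEFB122, a beta-defensin family gene, was at least 2.20-fold lower, while its other probe, well above background on 1 day 2 array and no day 7 array, did not pass (0.768).

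Genes of metabolic enzymes were among the falls. SDR16C5, a retinol dehydrogenase, had -1.0, -0.97 and -0.70 on day 7, against 3.28, 3.52 and 2.41 on day 2 (-3.96 ± 0.56, adjusted p = 0.0371). FMO4, a flavin monooxygenase, fell by 2.67, ACOX2, an oxidase of branched acyl-CoA in peroxisomes, by 1.5, and CYP2U1, a fatty acid hydroxylase, by 1.11. Mitochondrial enzymes that fell were PCCA, a subunit of propionyl-CoA carboxylase (0.11, 0.54 and 0.71 on day 7, against 2.28, 2.64 and 1.76 on day 2), ALDH6A1, of valine breakdown (-1.04), ALDH5A1, which removes succinic semialdehyde (-1.30), and MTHFD1L, of formate production (-1.63). PPM1K, the phosphatase that activates branched-chain keto acid dehydrogenase, had -0.74, -0.06 and 0.39 on day 7 and 1.28, 2.51 and 1.99 on day 2 (-2.06 ± 0.24, 0.0290). FAH, the last enzyme of tyrosine breakdown, fell by 1.24, THNSL2, a threonine synthase-like gene, by 1.61, and SAT2, of the spermine acetyltransferase family, by 1.51. PDIA2, a disulfide isomerase, fell by 4.01 (adjusted p = 0.0371), with 1 of 3 day 7 arrays well above background, and was at 0.10 on 1 of its other 2 probes. ALDH6A1 was well above background on 1 of 3 and ALDH5A1 on 2 of 3 day 7 arrays.

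Further falls were in signalling, transcription and trafficking genes. TCEA3, an elongation factor of RNA polymerase II, had -1.89, -2.86 and -2.37 on day 7, against 1.97, 0.84 and 0.11 on day 2 (-3.35 ± 0.52, adjusted p = 0.0466). OSGIN1, a growth inhibitor induced by oxidative stress, had -1.37, -0.91 and -1.38 on day 7, against 1.92, 2.73 and 1.60 on day 2 (-3.30 ± 0.51, 0.0464). RASGEF1A, an exchange factor of Ras, fell by 3.01 and RGS11, a regulator of G proteins, by 2.99. The metalloprotease gene ADAMTS17 had -3.05, -3.77 and -3.37 on day 7 and 0.29, 0.04 and 0.01 on day 2 (-3.51 ± 0.43, 0.0290). Its other probes were not well above background on any day 2 array and did not pass (0.146 and 0.161), so the call rests on 1 probe. Smaller falls were those of MICAL2 (-1.71), an actin oxidase, PACSIN1 (-1.73), ZFYVE16 (-1.81), WASHC3 (-1.12) and OSBPL8 (-1.54), which act in membrane traffic or lipid transfer, the nuclear pore gene NUP37 (-1.11) and the sulfatase gene ARSK (-1.14). The remaining falls were DYDC1 (-2.75), PDZK1IP1 (-1.90), LYRM2 (-1.91), LYRM1 (-1.20), TMT1A (-1.62), CCDC96 (-1.37), TMEM35A (-1.05), DSCAM, an adhesion gene (at least 1.29-fold lower), and TEX101 (at least 1.70-fold lower). DSCAM was well above background on 2 and TEX101 on 1 of the day 2 arrays.

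**Figure D3:**
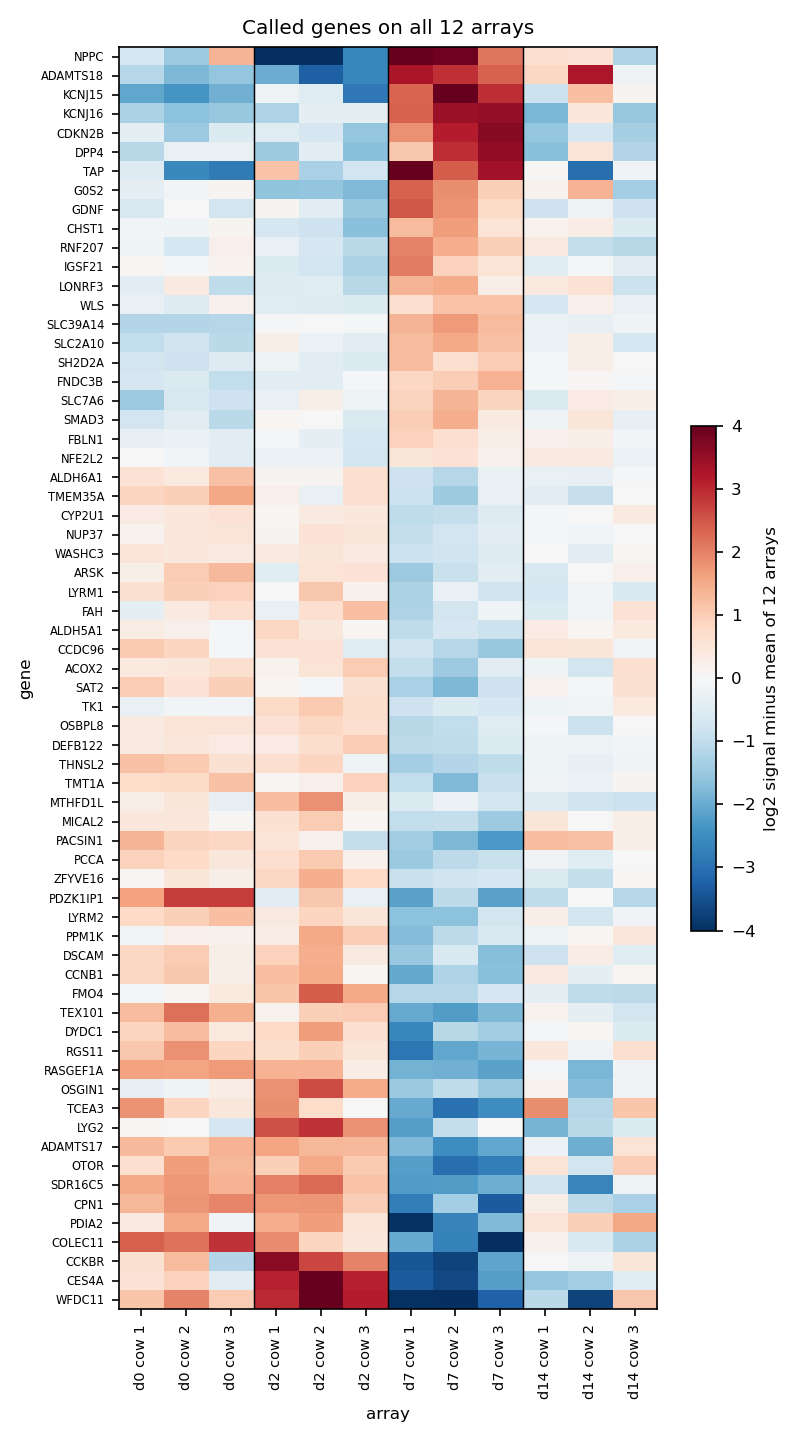
Rows are the 66 called genes, from the largest rise at the top to the largest fall at the bottom, and columns are the 12 arrays by day and cow. Colour is log2 signal minus the gene's mean over the 12 arrays, drawn to a limit of 4 either way. The day 7 mean was the highest of the 4 days in 22 of 22 genes called higher and the lowest in 42 of 44 called lower. The choice of these genes by day 7 against day 2 favours this. Over all genes the shares were 32.2% and 27.8%.

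Day 7 lay at the end of the range of the 4 days for nearly all called genes, a position that the choice by day 7 against day 2 favours. Its mean was the highest of the 4 days in 22 of the 22 genes called higher, against 32.2% of all genes, and the lowest in 42 of the 44 called lower, against 27.8%. Among the genes called lower, day 2 was the highest day in 23 and day 0 in 21. Among those called higher, day 2 was the lowest in 11, day 0 in 9 and day 14 in 2. The 2 groups of falling genes can be seen in single genes. CES4A had day means of -4.75, -1.27, -8.16 and -6.24 on days 0, 2, 7 and 14, highest on day 2, while COLEC11 had -0.94, -2.37, -6.39 and -3.99, highest on day 0. The choice by day 7 also favours the next counts, for which no share over all genes was taken. They largely follow from the counts of the highest and lowest day above. On day 14, 22 of 22 genes called higher lay below day 7 and 42 of 44 called lower lay above it. TAP, for example, had -5.72, -4.04, -0.41 and -4.78, and CDKN2B had -3.94, -4.06, -0.29 and -4.33.

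In the other day pairs, which share arrays with this one, the same genes had the following changes. CDKN2B changed by 3.65 on day 7 against day 0 (adjusted p = 0.00586), by -0.12 on day 2 against day 0 (0.92) and by -4.04 on day 14 against day 7 (0.0485). PACSIN1 changed by -2.85 on day 7 against day 0 (0.0017), by -1.11 on day 2 against day 0 (0.0411) and by 2.71 on day 14 against day 7 (0.0188). LYG2 had -0.84 on day 7 against day 0 (0.3) but 2.63 on day 2 against day 0 (0.0467), so its fall between days 2 and 7 left a day 7 mean of -6.69, against -5.85 on day 0. SLC39A14 rose on day 2 against day 0 (1.12, 0.0166) and further on day 7 against day 2 (1.49, 0.0290).

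Cell division genes were lower on day 7 in cows 1 and 2 and higher in cow 3. CCNB1, the cyclin that drives entry into mitosis, was the 1 called gene of 30 mitosis and spindle genes tested (0 higher, 1 lower). It was measured by 2 probes, which share the run of 22 bases shown in capitals. The 30 bases of each probe around that run are printed because both probes gave the same fall (chr20:11106729-11106792 and chr20:11106709-11106768, minus strand, HGSC Btau 3.1). The probe positions overlap, so the dimmer probe is no separate support.
CCNB1 brighter probe: ctttGGAATACTACCTGCAAATAAAActcc
CCNB1 dimmer probe: GGAATACTACCTGCAAATAAAAttggcacc
CCNB1 had -0.53, 0.29 and -0.16 on day 7, against 2.74, 3.02 and 1.59 on day 2 (-2.59 ± 0.36, adjusted p = 0.0371), and its dimmer probe changed by -2.61 (0.0290). The days did not overlap. The median of the 30 genes was -0.92, but it was -2.17 in cow 1, -1.39 in cow 2 and 0.87 in cow 3, with 0, 0 and 29 of the 30 genes higher on day 7 in these cows. The gene that was not higher in cow 3 was CCNB1 itself (-1.75). KIF2C, a mitotic kinesin, shows the split, with -2.23, -1.87 and -1.80 on day 7, against -0.59, -0.27 and -2.25 on day 2 (adjusted p = 0.234). AURKA, a kinase of the spindle poles, had -2.90, -2.48 and -1.93 on day 7, against -1.27, -1.11 and -2.41 on day 2 (0.293). It is the day 2 value of cow 3 that lies low in both. Over the list, the summed signal was 7.04, 12.8 and 13.7 on day 7, against 29.6, 35.2 and 11.2 on day 2. Without the day 2 array of cow 3 the median was -1.36 with 1 gene called, and without cow 3 altogether it was -1.81 with 17 of 30 called lower. Over all 12610 genes, 49 were called lower in the first of these fits and 530 in the second. The epithelial sums of the day 2 array of cow 3 were low and its muscle sums high, as given above. Their part in this split between cows was not tested.

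DNA replication genes had a similar split between cows at a smaller size. Of 28 S phase genes 0 were higher and 1 lower, TK1, the salvage kinase of thymidine, which had 1.99, 2.26 and 2.17 on day 7, against 3.60, 3.86 and 3.52 on day 2 (-1.52 ± 0.17, adjusted p = 0.0290). By cow TK1 changed by -1.60, -1.60 and -1.35. The list median was -0.25, with 4, 6 and 24 of the 28 genes higher on day 7 in cows 1, 2 and 3. MCM5, of the replicative helicase, had 1.06, 0.74 and 1.11 on day 7 and 2.17, 1.98 and 0.84 on day 2 (-0.69 ± 0.30, 0.27). Cholesterol and lipid synthesis genes had 2, 6 and 19 of 25 higher, a median of -0.35 and 0 called (0 higher and 4 lower at an unadjusted p under 0.05). Their smallest p was that of FDFT1, squalene synthase, at -1.20 ± 0.32 (0.116).

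**Figure D4:**
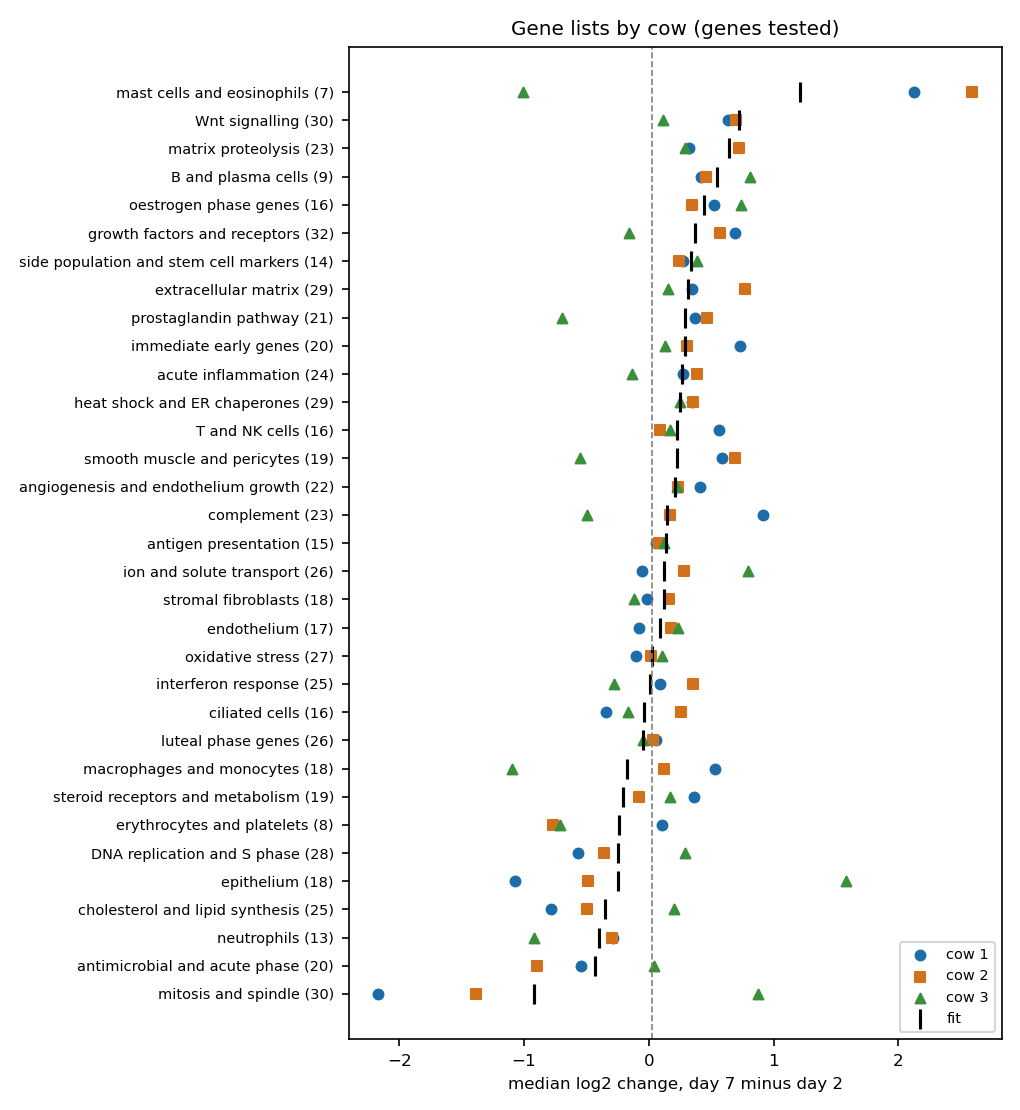
Median log2 change (day 7 minus day 2) of each gene list, with the number of genes tested in parentheses. Symbols are the medians in cows 1, 2 and 3, black bars the medians of the fitted changes and the dashed line the median of all genes (0.03). Mitosis and spindle genes are at -2.17, -1.39 and 0.87 in cows 1, 2 and 3, and epithelial markers at -1.07, -0.49 and 1.58.

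Of 20 antimicrobial genes 1 was higher (TAP) and 0 lower, with a median of -0.43. TAP, the tracheal antimicrobial peptide, is a beta-defensin of cattle first known from the airway, and its relatives LAP (lingual antimicrobial peptide), EBD (enteric beta-defensin) and DEFB4A have probes that, like its own, lie on chromosome 27. To show how alike the probes are, 30 bases of a TAP, the LAP and an EBD probe are printed, with the longest run shared with the TAP probe in capitals (for TAP itself, the run shared with LAP).
TAP dimmer probe: gaaaaatgctgtagaaaGAAGTAAAAGAAG
LAP: gGAAGTAAAAGAAGgcgaagacgtggccag
EBD: gcaggtggagGTAAAAGAAGgagaagatgc
The shared run is 13 bases between LAP and the TAP probe shown and 10 between EBD and TAP. At the best ungapped alignment, 20 of 60 bases of the LAP probe are identical to the TAP probe shown. To the brighter TAP probe, which is not shown, 30 are identical. For the EBD probe the better match of the TAP probes has 31 of 60 identical bases. Whether a probe binds the transcripts of its relatives was not tested. TAP had 0.46, -1.32 and -0.39 on day 7, against -2.58, -5.03 and -4.51 on day 2 (3.63 ± 0.51, adjusted p = 0.0371; brighter probe at chr27:6127923-6127982, minus strand). Its dimmer probe was not well above background on day 2 and was at least 2.99-fold higher on day 7 (0.0293). The relatives did not pass. DEFB4A had -0.90, -0.57 and -4.05 on day 7, against 1.28, 1.63 and 2.46 on day 2 (-3.63 ± 0.97, 0.117). LAP had -6.20, -4.59 and -6.99 on day 7, with 1 of 3 arrays well above background, against -4.23, -2.42 and -4.19 on day 2 (-2.32 ± 0.56, 0.0979). EBD had changes of 0.67, 0.80, -1.67 and -1.68 on 4 probes, none of which passed, and the last is that of the probe shown.

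Genes of inflammation gave few calls between these days, and few were made among all genes (0.174% higher, 0.349% lower). In lists of this size 0 calls therefore do not set these genes apart. Of 24 acute inflammation genes 0 passed (3 higher and 2 lower at an unadjusted p under 0.05) with a median of 0.26. The smallest p was that of PTX3, a soluble pattern receptor, with -1.43, -0.92 and -2.58 on day 7, against 1.46, 1.61 and 0.05 on day 2 (-2.68 ± 0.54, adjusted p = 0.0692). Complement had 0 of 23 (1 higher and 1 lower unadjusted), median 0.15, with C5 at -3.26 (0.121). Interferon response had 0 of 25 (2 and 1), median 0.01, with STAT2 at 0.55 (0.0981), and antigen presentation 0 of 15 (1 and 0), median 0.13, with BOLA-DOB at 0.83 (0.246). Of 20 immediate early genes 0 passed (4 higher, 0 lower unadjusted), median 0.29, with IER3 at 1.82 (0.115). Oxidative stress had 1 of 27 higher (NFE2L2) and 0 lower, median 0.03. HMOX1, heme oxygenase, had 4.01, 3.34 and 2.25 on day 7, against 4.53, 5.09 and 4.79 on day 2 (-1.61 ± 0.47, 0.139).

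Of 29 extracellular matrix genes 1 was higher (FBLN1) and 0 lower, with a median of 0.32 and 7 higher and 1 lower at an unadjusted p under 0.05. FBLN1 had 3.96, 3.71 and 3.32 on day 7, against 2.98, 2.68 and 2.33 on day 2 (1.00 ± 0.16, adjusted p = 0.0466). TNC, tenascin C of healing tissue, had 5.29, 5.12 and 4.88 on day 7 and 2.43, 1.67 and 3.35 on day 2 (2.62 ± 0.61, 0.0939). SPP1, osteopontin, had -0.60, -2.08 and -3.41 on day 7 and 0.86, 1.89 and 4.20 on day 2 (-4.35 ± 1.05, 0.0981). Days did not overlap for any of these 3 genes. Matrix proteolysis had 0 of 23 called (8 higher, 0 lower unadjusted), a median of 0.64 and 10 genes with all day 7 arrays above all day 2 arrays, against 11.4% of all genes, and 2 below, against 9.32%. Its smallest p was that of ADAMTS4, an aggrecanase, with 4.58, 3.27 and 1.79 on day 7 and 1.14, 1.40 and -0.13 on day 2 (2.40 ± 0.54, 0.0875).

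Wnt signalling had 0 of 30 genes called, 12 higher and 2 lower at an unadjusted p under 0.05 (10.1% and 9.01% of all genes), and a median of 0.72. The smallest p was that of DKK1, a secreted Wnt antagonist, with -1.18, -3.85 and -5.05 on day 7, against 1.55, 1.58 and 1.53 on day 2 (-4.91 ± 1.04, adjusted p = 0.0771). Ligand and receptor genes named after their values were seen were WNT2 (2.17 ± 0.54, 0.105), WNT5A (1.37 ± 0.33, 0.0979) and FZD10 (1.76 ± 0.39, 0.0834), each without overlap between the days. AXIN2, a feedback target of the pathway, had a change of 1.19 ± 0.38 (0.162). Heat shock and ER chaperones had 0 of 29 called, 9 higher and 0 lower unadjusted, and a median of 0.25. All day 7 arrays lay above all day 2 arrays in 13 of these genes (11.4% of all genes) and below them in 2 (9.32%). PDIA4, a disulfide isomerase of the ER, had 4.88, 4.97 and 4.65 on day 7, against 3.89, 3.82 and 3.50 on day 2 (1.09 ± 0.20, 0.0593), and HSP90B1, an abundant ER chaperone, 0.77 ± 0.15 (0.0664). HSPH1, a cytosolic chaperone, had 0.75 ± 0.16 (0.0827). Both HSP90B1 and HSPH1 were picked after their values were seen. Angiogenesis had 0 of 22 called (4 higher, 1 lower unadjusted), median 0.21, with ANGPT2, a ligand that loosens vessels, at 1.17 ± 0.23 (0.0658).

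Steroid-related genes did not pass, with larger changes in some. Of 16 oestrogen phase genes 0 were called (4 higher and 2 lower at an unadjusted p under 0.05), with a median of 0.44. PGR, the progesterone receptor, had 0.61, -0.12 and 0.18 on day 7, against -1.10, -1.03 and -1.76 on day 2 (1.52 ± 0.30, adjusted p = 0.0665). OXTR, the oxytocin receptor, had 3.33, 3.61 and 1.33 on day 7, against -0.99, -2.16 and 0.41 on day 2 (3.67 ± 0.95, 0.11). All day 7 arrays lay above all day 2 arrays in 4 of the 16 genes, against 11.4% of all genes. They lay below them in 2, against 9.32%. The 4 were PGR, OXTR, ESR1 (1.25 ± 0.35, 0.124) and GREB1 (1.75 ± 0.43, 0.102), which is induced by oestrogen. ESR1 was well above background on 2 of 3 and GREB1 on 1 of 3 day 2 arrays. SERPINA14, the uterine serpin, had 4.12, 5.86 and 6.19 on day 7 and 3.18, 4.39 and 1.25 on day 2, which overlap (0.471). Of 26 luteal phase genes 0 were called (5 and 4 unadjusted), median -0.04, and of 19 steroid receptor and metabolism genes 0 (6 and 3), median -0.21. HSD11B1, which regenerates active glucocorticoid, had -0.09, -0.40 and -1.83 on day 7, against -3.88, -4.86 and -7.49 on day 2 (4.64 ± 0.91, 0.0666), with 2 of 3 day 2 arrays well above background. FKBP5, a chaperone induced by glucocorticoids and progesterone, had 1.56, 0.58 and 0.82 on day 7 and 3.47, 3.42 and 3.00 on day 2 (-2.31 ± 0.69, 0.141), while its relative FKBP4 had 1.03 ± 0.26 (0.108). ESR2, the beta oestrogen receptor, had -2.57 ± 0.78 (0.143), with changes of -3.60, -4.17 and 0.06 in cows 1, 2 and 3.

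In the prostaglandin pathway 0 of 21 genes were called (2 higher and 4 lower at an unadjusted p under 0.05), with a median of 0.29 (-0.13 without cow 1). PLA2G4A, which releases arachidonate, had a change of -1.0 ± 0.24 (adjusted p = 0.0979). PTGS2, the inducible cyclooxygenase, had -0.64, -0.54 and -5.63 on day 7, against -0.51, -1.30 and -3.67 on day 2 (0.85), so cow 3 lay low on both days. HPGD, which inactivates prostaglandins, had -1.12, 0.13 and 0.27 on day 7, against 3.14, 3.58 and 2.22 on day 2 (-3.22 ± 0.75, 0.0957). The reductase genes AKR1C4 and AKR1B1 had -2.56 (0.165) and -0.61 (0.215). Among receptors, PTGER4 had 1.94, 1.29 and 0.73 on day 7 and -0.75, -1.03 and -0.71 on day 2 (2.15 ± 0.57, 0.116), PTGER2 a change of 0.96 (0.18) and PTGFR 0.81 (0.837). All day 7 arrays lay above all day 2 arrays in 2 of the 21 genes, PTGER4 among them, against 11.4% of all genes. They lay below them in 4, PLA2G4A, HPGD, AKR1C4 and AKR1B1, against 9.32%.

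Side population and stem cell markers, the subject of the study's title, had 0 of 14 called (3 higher and 1 lower at an unadjusted p under 0.05) and a median of 0.34. ABCG2, the dye efflux pump that defines side population cells, had -0.80, -1.40 and -0.64 on day 7, against -0.89, -0.90 and -1.38 on day 2 (0.11 ± 0.28, adjusted p = 0.881). SUSD2, which marks mesenchymal stem cells of the human endometrium, had -1.17, -1.19 and -0.32 on day 7, against 4.82, 5.05 and 3.46 on day 2 (-5.34 ± 1.04, 0.0666). SUSD2 thus differed without overlap and missed the threshold, while ABCG2 overlapped. NT5E had -1.70 (0.306), KIT -0.04 (0.953) and LGR5 1.02 (0.165), the last with 1 of 3 arrays well above background on each day.

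Cell type markers gave 0 calls in 11 lists, with 16 higher and 9 lower of 159 at an unadjusted p under 0.05 (10.1% and 9.01% of all genes). Macrophage markers had 14, 10 and 4 of 18 genes higher on day 7 in cows 1, 2 and 3 and a median of -0.17 (1 higher and 2 lower at an unadjusted p under 0.05). The median was 0.15 without the day 2 array of cow 3 and 0.44 without cow 3. The smallest p among them was that of SPIC, a transcription factor of iron-recycling macrophages, with -4.89, -4.92 and -4.71 on day 7, against -3.33, -3.35 and -4.21 on day 2 (-1.20 ± 0.24, adjusted p = 0.0679). Neutrophil markers had a median of -0.40, with S100A12 at -1.24 (0.152), and their summed signal was 9.94, 6.49 and 4.35 on day 7, against 13.0, 10.1 and 7.44 on day 2. Epithelial markers had a median of -0.25 with 2, 6 and 15 of 18 higher, and KRT18 at -0.84 (0.143), and their median was 0.71 without cow 1. Smooth muscle and pericyte markers had 17, 18 and 3 of 19 higher, median 0.23, and CSPG4 at 0.79 (0.172). The 7 mast cell and eosinophil markers had a median of 1.21, with 7, 6 and 0 higher, and TPSB2, a tryptase, at 1.74 (0.183). The medians of these 3 lists had one sign in cows 1 and 2 and the other in cow 3, at -1.07, -0.49 and 1.58 for epithelium, 0.59, 0.69 and -0.55 for muscle and 2.13, 2.59 and -1.01 for mast cells. The split was not particular to them. Macrophage markers had 0.53, 0.12 and -1.10, and lists of other kinds had it too, such as complement (0.91, 0.17 and -0.49).

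The medians of the remaining marker lists follow. T and NK cell markers had 0.23 (CD2 0.99, adjusted p = 0.0993), B and plasma cells 0.55 (MS4A1, not well above background on day 2, at least 1.27-fold higher but not called, 0.171), ciliated cells -0.04 (DNAI1 0.92, 0.191), stromal fibroblasts 0.12, endothelium 0.09 (CLDN5 -1.31, 0.0958) and erythrocytes and platelets -0.24. HBQ1, a globin gene of the last list, had -3.29, -3.14 and -3.22 on day 7, against -0.72, -0.41 and -2.03 on day 2 (-2.17 ± 0.38, 0.0561). SFRP1, a Wnt antagonist with the smallest p of the stromal list, had 1.32 ± 0.42 (0.16).

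The called genes differed in size between cows. In the 44 genes called lower the smallest change of the 3 was that of cow 3 in 32, of cow 1 in 10 and of cow 2 in 2. In the 22 called higher it was that of cow 1 in 12, of cow 2 in 3 and of cow 3 in 7. Without the day 2 array of cow 3, 31 of the 66 genes and 12 of the 24 with the largest changes were still called, and the fitted changes of those 24 came to between 0.808 and 1.14 times their size with it. Without that array NPPC (adjusted p = 0.0471), CES4A (0.0441) and CCNB1 (-2.94, 0.0441) were still called, while KCNJ15 at 3.49 (0.0568), CDKN2B at 3.31 (0.058), TAP at 3.38 (0.0616), DPP4 at 3.29 (0.055) and CPN1 at -4.03 (0.0517) missed the threshold.

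Reading each gene from its brightest probe left out calls made on other probes. In all 96 gene symbols had a called probe, 30 of them only on a probe that was not the brightest. The following examples were chosen after their values were seen. SMOC2, a matricellular protein, was higher by 2.00 on such a probe (adjusted p = 0.0290), and by 1.62 on another called probe, while its brightest probe had 0.65 (0.157). HS3ST2, a heparan sulfate sulfotransferase, was higher by 2.85 (0.0290), but its brightest probe had -0.03 (0.97). HSPA5, the main chaperone of the ER, was higher by 1.06 (0.0371), against 0.31 (0.312) on its brightest probe, and PDIA4 by 1.31 (0.0371), against 1.09 (0.0593). TSC22D3, a glucocorticoid-induced leucine zipper gene, was lower by -3.06 (0.0293), with -2.40 (0.0526) on its brightest probe. FMO2, a flavin monooxygenase, was at least 12.5-fold lower on a probe at background on day 7 (0.0499), with -4.81 (0.066) on its brightest. COL22A1, a collagen of tissue junctions, was at least 8.94-fold lower on 1 probe (0.0290), which was not well above background on day 7, and had a change of -0.30 (0.732) on its brightest. CD34, of vessel and progenitor cells, was at least 1.02-fold higher (0.0466) on a probe not well above background on day 2, with 0.65 (0.207) on its brightest. Of the 42 called genes with several probes, 40 had the same sign on all of them and 19 had another called probe.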

How the data were processed

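Total RNA of 12 endometrial biopsies was measured on one-colour arrays, and the 3 day 7 and 3 day 2 arrays are compared. The deposited scanner files hold processed intensity per spot from Agilent's Feature Extraction software. The file headers give its version as 11.5.1.1, and per the submitters' processing notes it was 10.5.1.1. The deposited value table holds log2 values, made in a way not given in the sources used here. Column by column it matched, with a correlation of 1.0, the log2 scanner signals scaled by the 75th percentile and set relative to each probe's median over the 12 arrays. Median absolute differences were 0.00038 to 0.0023. The deposited values are thus centred per probe, unlike the signals printed here. Background flags are other values in the scanner files, as deposited by the authors.

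Spots of a probe were averaged, 1417 control spots and 31 probes with outlier flags were left out, and each array's 75th percentile was subtracted from log2 intensity. Of 43653 probes, 33539 were well above background on at least 3 of 12 arrays. There were no saturated spots. Precision is limited by the 3 arrays of each day. Of the 43622 probes after flags, 20582 were named through their own accession and 1604 through another in a RefSeq gene table of another assembly (names only), 9844 carried a current symbol, 372 an older one, and 11220 kept the file's name. Probe positions are the file's, on HGSC Btau 3.1.

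Days were compared with limma 3.58.1 (R 4.3.3) on the 12 arrays together, in a model of day plus a cow block, with 6 residual and 2.33 prior degrees of freedom and Benjamini-Hochberg adjustment over all probes at 0.05. The script was tested on simulated data. The pairing comes from the study's design text, which gives the same 3 animals on all days. The mean correlation of deviations from day means was 0.285 over 18 same-cow pairs (lowest 0.0235, 15 above 0.1), and 0.123, 0.497 and 0.205 between days 7 and 2 in cows 1, 2 and 3. Genes named are the 12 largest rises and 12 largest falls (by bound where a day is at background) among calls with 1 sign in 3 of 3 cows, all other calls, up to 4 members of each list with a call and the member with the smallest p of the others. All members of the prostaglandin, oestrogen phase, steroid and side population lists could be given. Members and lists were chosen with earlier results of these data known. Alternatives changed the block, the arrays fitted, the sample links, background correction, scaling, source of values, filter, array weights, cows and probe rule. Promoter and protein sequences were not used here.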

Additional observations from a re-analysis of the deposited data

How the results depend on the processing

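Without the pairing by cow (no replicate block) 143 probes and 62 genes were called, with 100 of the 163 probes among them, and 22 of the 66 genes were not called. The deposited value table gave 159 probes and quantile normalization 165. With no filter 51 probes and 25 genes were called, on probes well above background on all 12 arrays 266 and 108, and with normexp and quantile normalization 431 and 194. Array weights gave 10148 probes and 4064 genes, in a fit that stopped before it converged. Only the 6 arrays of days 2 and 7 gave 0 probes and 0 genes (4802 probes at an unadjusted p under 0.05), and the links of the scanner files gave 0 and 0 (1398). Leaving out a cow gave 0 to 2145 probes and 0 to 853 genes: 0 without cow 1 (2781 unadjusted) or cow 2 (2823) and the highest counts without cow 3. The called probes kept their sign in 163 of 163 under these alternatives where all were tested, in 116 of 116 kept by the stricter filter, and in 161 of 163 by the file links. Apart from the file links, the alternatives use the same arrays or some of them, with the same days. The file links also use the same 12 arrays, mostly under other days. By these links the day 7 and day 2 arrays of cow 2 stayed under their day. Of the 163 probes, 0 had an unadjusted p under 0.05 by the links. The probes were chosen by their change on these arrays. Kept signs were therefore favoured in advance, by the file links too, and are no separate support. The slide was not fitted apart because it is the same factor as the cow. The cause of these shifts was not tested.

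Averaging all probes of a symbol ended 10 of 66 calls, among them PDIA2 (-2.65) and ADAMTS17 (-0.34). Of the named genes, 15 values changed sign, none of a called gene. The ABCG2 change was -0.21 with array weights, -0.0056 by the file links and from -0.21 to 0.42 with a cow or the day 2 array of cow 3 left out (-0.14 without that array). KIT had 0.11 by the links and 0.21 without cow 2. With such arrays left out PTGFR ranged from -0.92 to 2.43, with -0.054 after normexp and quantile normalization, and PTGS2 from -1.05 to 0.31, with 0.29 with array weights. EBD had -0.47 as a mean of its probes. By the links BOLA-DOB had -0.65, ESR1 -0.20, LGR5 -0.28 and SERPINA14 -1.50.

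Some list medians changed sign. Without cow 1 the median was 0.71 for epithelium, -0.13 for the prostaglandin pathway, -0.07 for complement, 0.02 for steroid receptors and metabolism and -0.03 for interferon response (-0.13 without cow 2). Without the day 2 array of cow 3 it was 0.15 for macrophages, -0.02 for endothelium, -0.06 for oxidative stress and 0.01 for luteal phase genes. By the file links it was 0.11 for ciliated cells, 0.07 for neutrophils, -0.06 for immediate early genes and -0.21 for oestrogen phase genes.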
